A study of Homo sapiens with 4 samples.

Results

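The solute carrier genes are the genes whose names begin with SLC and a digit, or with SLCO, read here across 4 FLASH-seq libraries of human RPE1 cells. All gene names of this form in any of the 4 deposited tables were taken, antisense genes left out, which gave 127 members of 9667 genes. A member missing from a table was set to 0 there. RPE1 is a human cell line immortalised from the retinal pigment epithelium, and all 4 libraries came from its iCas9 p53/puro-dKO derivative with a further knockout of CFAP20, a protein known from cilia and flagella. FLASH-seq links proteins to the RNA they touch with ultraviolet light, pulls a biotin-tagged protein down on streptavidin beads, trims the bound RNA with RNase I and sequences what is left. The CFAP20-KO group (2 libraries) held those knockout cells with no tagged protein and was the negative control. The tagged-CFAP20 group (2 libraries) held the same knockout cells expressing FLASH-BIO-CFAP20, a biotin-tagged form of the protein. The labels do not say which promoter drives it or whether the knockout line is a single clone. The series asks whether CFAP20 binds RNA, and every comparison here asks which solute carrier RNAs came down above the control pull-down.

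Solute carriers are membrane proteins that move ions, nutrients, metabolites and drugs along or against a gradient, many of them by exchanging one solute for another or by using the sodium or proton gradient. They sit in the plasma membrane, in the membranes of lysosomes, the Golgi and the endoplasmic reticulum, and, for the SLC25 family, mostly in the inner membrane of mitochondria. In retinal pigment epithelium they carry lactate, bicarbonate, nutrients and vitamins between the blood side and the photoreceptor side.

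The deposited signal is coverage in bins of 200 bp about each gene start, scaled per library in a way the sources used here do not give. Values came in whole steps, with 1 step taken as 1 read touching a bin and called a read overlap below. Depth differed strongly: reads overlapped the member genes 143 and 57 times in the CFAP20-KO libraries and 2519 and 2112 times in tagged-CFAP20. Where a gene is at 0, up to 3 reads could have been missed, worth 349 in CFAP20-KO replicate 1 and 1164 in replicate 2, but 54.0 and 58.6 with the tagged protein. Such floors, like all intervals below, cover counting error only. Separate cultures are not named for the replicates in the labels, so a limma or permutation p-value reflects library-to-library spread that may be technical. The exact binomial test pools the reads of a group, so its p-values cover counting error only and hold no spread between libraries. No input RNA library is among the 4, so the abundance of an RNA and the share of it that was bound cannot be told apart, and neither, as in any bulk sample, can fewer cells and less RNA per cell. None of 7 markers of cultured RPE1 cells has a row in the tables, while 5 of 10 markers of retinal pigment epithelium do and sum to 415 and 0 in CFAP20-KO and 797 and 794 in tagged-CFAP20, with TTR at 0.

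Of the 49 member bins with at least 3 overlaps in each tagged-CFAP20 library, 35 overlap an exon of their gene, and 5 of the 49 are shown as examples of the covered sequence. The SLC4A7 exon 3 bin held the most overlaps of any member bin in tagged-CFAP20 replicate 2, and it is shown with the bin after it. The bins of SLC38A6, SLC35B3 and SLC44A2 are the ones outside SLC4A7 and SLC25A37 that had at least 3 overlaps in each tagged-CFAP20 library and whose exon bases are all coding. All 5 had 0 overlaps in both CFAP20-KO libraries, which at the depth of the controls shows no difference by itself. Sequences are from hg38, on the strand of the gene and 5′ to 3′, with the coding bases of the gene's main transcript in capitals and intron bases in lower case.
SLC4A7 exon 3 (chr3:27448648-27448847, minus strand): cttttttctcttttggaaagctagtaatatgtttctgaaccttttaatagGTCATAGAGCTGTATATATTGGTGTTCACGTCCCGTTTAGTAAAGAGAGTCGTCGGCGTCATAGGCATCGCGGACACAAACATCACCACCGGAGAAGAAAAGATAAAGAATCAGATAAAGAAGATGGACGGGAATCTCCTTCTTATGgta
SLC4A7 intron after exon 3 (chr3:27448448-27448647, minus strand): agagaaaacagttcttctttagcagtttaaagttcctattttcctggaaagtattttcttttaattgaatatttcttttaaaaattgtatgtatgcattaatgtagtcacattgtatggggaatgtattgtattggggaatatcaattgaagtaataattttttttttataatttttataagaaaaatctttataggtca
SLC38A6 exon 12 (chr14:61046062-61046261, plus strand): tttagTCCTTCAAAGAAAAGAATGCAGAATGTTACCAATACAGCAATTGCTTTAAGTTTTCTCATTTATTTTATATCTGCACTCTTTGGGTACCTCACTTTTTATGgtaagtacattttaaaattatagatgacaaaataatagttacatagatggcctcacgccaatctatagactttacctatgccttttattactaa
SLC35B3 exon 3 (chr6:8429984-8430183, minus strand): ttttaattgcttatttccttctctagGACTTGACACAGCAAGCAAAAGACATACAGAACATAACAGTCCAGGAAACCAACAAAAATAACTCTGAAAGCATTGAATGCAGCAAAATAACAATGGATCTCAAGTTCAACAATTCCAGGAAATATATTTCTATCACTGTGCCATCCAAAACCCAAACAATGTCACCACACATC
SLC44A2 exon 3 with the start of the next exon (chr19:10627758-10627957, plus strand): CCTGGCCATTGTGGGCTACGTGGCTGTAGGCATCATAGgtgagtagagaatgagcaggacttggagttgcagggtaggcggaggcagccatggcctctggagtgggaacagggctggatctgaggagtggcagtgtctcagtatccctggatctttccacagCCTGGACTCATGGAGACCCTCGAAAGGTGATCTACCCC

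In tagged-CFAP20 the SLC4A7 exon 3 bin had 17 and 20 overlaps and the intron bin after it 13 and 17. The exon bin was 40% G or C, while the intron bin was 23.5% G or C and 44% U. The bins of SLC35B3 and SLC38A6 held 3 and 4 overlaps each and that of SLC44A2 held 3 and 3, at 36%, 30% and 57.5% G or C. Base composition therefore varied widely among these example bins, which do not stand for all covered bins. Of 26995 bins in the member genes, 49 had at least 3 overlaps in each tagged-CFAP20 library, 32 of them in SLC4A7 and 9 in SLC25A37, and 9 members had such a bin. No member bin had 3 or more overlaps in each CFAP20-KO library, and 37 of the 49 were at 0 in both. The 49 were chosen by their tagged-CFAP20 overlaps, and over all genes the controls held 13054 overlaps against 300080. Values of 0 in the controls therefore show no difference by themselves.

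SLC4A7, which encodes an electroneutral sodium bicarbonate cotransporter, had the largest summed signal of the family and was higher with the tagged protein. Its gene as deposited spans chr3:27376606-27484347 on the minus strand, of which the first 100 kb were read. The summed signal stood at 2075 and 2215 in CFAP20-KO replicates 1 and 2 and at 7738 and 6702 in tagged-CFAP20 replicates 1 and 2. Both tagged libraries lay far above both controls, 7220 ± 732 against 2145 ± 99 (SD, n = 2 each), that is 3.37 times as much. The limma log2 change of signal + 276.88 was 1.63 with an SE of 0.22 (adjusted p = 0.0374). With all libraries scaled to the same summed window signal the change was 0.57, with an adjusted p of 0.117 in limma. With only 1 of the tagged-CFAP20 libraries in the fit the log2 change was 1.53 (without replicate 1) and 1.73 (without replicate 2), but the SE rose to 0.98 and 0.97, since the CFAP20-KO pair alone then gives the spread and the lone library is assumed to vary like it, and the limma adjusted p was 0.999 and 0.997. As a share of the signal of all genes, the ratio of pooled reads was 1.40 with a 95% exact interval of 0.935 to 2.20.

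Along SLC4A7 the tagged-CFAP20 signal was broad and was densest at exon 3 and around exons 6 and 7 of 26. Read overlaps fell in 226 and 227 of 501 bins in the tagged-CFAP20 libraries and in 25 and 7 bins in the CFAP20-KO libraries. The stretch from 50 to 60 kb downstream of the start, which holds coding exons 6 and 7, took 23.1% and 24.7% of the tagged-CFAP20 overlaps, and 12% (3 overlaps) and 0% of the CFAP20-KO overlaps. Bins that overlap an exon of any transcript of the gene make up 10.2% of its bins and held 40.0% and 36.6% of the tagged-CFAP20 overlaps, against 36.0% and 25.0% in CFAP20-KO, where the shares rest on 9 and 2 overlaps. Per bin, exons held 5.89 and 5.09 times the overlaps of introns in the tagged-CFAP20 libraries and 4.96 and 2.94 times in the controls. Exon bins were thus favoured in all 4 libraries.

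Summed over the 127 members, signal was 11869 and 15782 in CFAP20-KO and 32378 and 29427 in tagged-CFAP20. The group means of 13826 ± 2767 and 30902 ± 2086 (SD, n = 2 each) gave a ratio of 2.24, beside 2.17 for the sum over all genes. The exact two-sided permutation p over the libraries was 0.333, the smallest that 2 against 2 libraries can give. With the same summed window signal in every library the ratio was 1.02. The members held 1.56% and 1.46% of the signal of all genes in CFAP20-KO and 1.52% and 1.57% in tagged-CFAP20, which overlap (exact permutation p = 0.667). Without SLC4A7 the shares were 1.29% and 1.26% against 1.17% and 1.21%, a difference of -0.086 percentage points, and without CFAP20-KO replicate 2 the difference was -0.018, against 0.034 with all libraries and members, so its sign rests on 1 gene and on 1 library. Leaving out any other library gave 0.014 to 0.087.

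Signal was concentrated in few members. SLC4A7, SLC25A37, SLC38A6 and SLC7A1 together held 41.7% of the family's tagged-CFAP20 signal and 35.5% of its CFAP20-KO signal. Of the 127 members, 34 were at 0 in all 4 libraries, 74 had signal in both tagged-CFAP20 libraries and 15 in both CFAP20-KO libraries, and those 15 had signal in all 4. A further 44 had signal with the tagged protein and none in either control. Only 29 members had a mean tagged-CFAP20 signal above 268, which is what 3 reads are worth in the pooled controls, so for most of the family the controls could hide as much. Member genes were long, 3.38 to 410 kb with a median of 32.6 kb against 17.3 kb for all genes, and 72.4% of members had tagged-CFAP20 signal against 61.5% of all genes. Whether length moved this share was not tested.

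**Figure D1:**
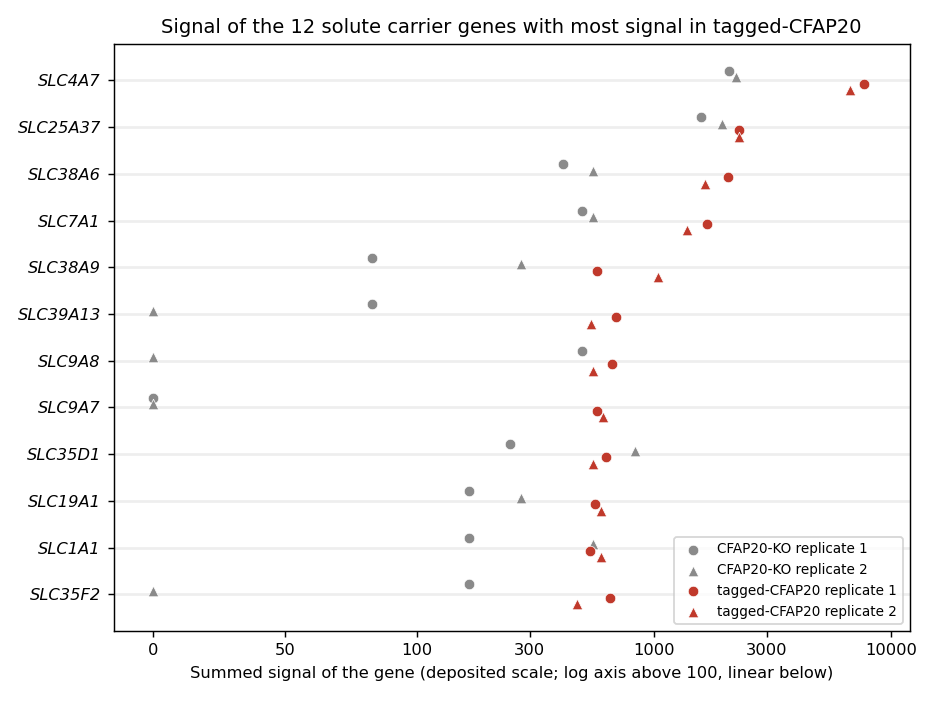
Summed signal of each of the 12 solute carrier genes with most signal in tagged-CFAP20 (x axis, deposited scale, logarithmic above 100 and linear below), with 1 point per library and points of a gene offset vertically to limit overlap. In each library SLC4A7 has the largest sum, SLC9A7 is at 0 in both CFAP20-KO libraries, and the groups of SLC35D1 and SLC1A1 overlap. The sum grows with gene length, so the order is not an order of levels.

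Per kb of gene read, SLC39A13 had the highest mean tagged-CFAP20 signal, 78.7 ± 13.5 per kb, followed by SLC37A4 at 77.7 ± 28.7, SLC4A7 at 72.2 ± 7.32, SLC6A8 at 52.5 ± 9.25, SLC25A37 at 49.0 ± 0.0428 and SLC38A6 at 25.9 ± 4.08 (SD, n = 2 each). The first 3, SLC39A13, SLC37A4 and SLC4A7, differed from each other by less than their spread between replicates, and so did SLC6A8 and SLC25A37. In CFAP20-KO the mean per kb was 5.28 for SLC39A13, 21.5 for SLC4A7, 37.7 for SLC25A37 and 6.78 for SLC38A6. The order in tagged-CFAP20 is thus not an order of differences from the control. Some of the leading genes are short, at 7.87 kb for SLC39A13, 6.56 kb for SLC37A4 and 8.5 kb for SLC6A8. SLC6A8, the creatine transporter, has a near-identical pseudogene copy elsewhere in the genome, so its signal is uncertain.

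Of 76 members with signal in at least 2 libraries, 16 passed an adjusted p of 0.05 in limma as higher with tagged CFAP20 and 0 as lower. Over all genes tested 23.4% were called higher and 0.0224% lower, so the members' count was close to the background. Among the 16, 13 had no control signal at all, so they entered the test only through the group where they are high, and 10 had a tagged-CFAP20 signal under the floor of 268. The 13 included SLC9A7, SLC22A5, SLC41A1, SLC18B1, SLC27A4, SLC16A7, SLC22A13, SLC2A8, SLC25A4, SLC35F1, SLC25A20 and SLC47A2. The other 3 were SLC4A7, SLC38A6 and SLC39A13. At an unadjusted limma p under 0.05 there were 35 members, none of them lower, beside 46.3% of all genes. The median log2 change was 0.36 over the members tested and 0.37 over all genes tested, and 0.12 and 0.13 with the same summed window signal. With that scaling limma called 0 members and 0 genes at an adjusted p of 0.05, and 29 members at an unadjusted p under 0.05, beside 36.5% of the genes tested.

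An exact binomial test of pooled reads on the deposited scale called 3 members higher, beside 6.01% of all genes (0.0448% were lower and 0 members), and these were SLC4A7 (adjusted p = 6.21e-10), SLC38A6 (0.00504) and SLC38A9 (0.0495). On shares of the gene signal the exact test called 0 members, beside 0.0672% of genes higher and 0.202% lower, and 5 members had an unadjusted p under 0.05, beside 5.51% of all genes, so that count was near the background. They included SLC25A37, SLC39A8, SLC25A33 and SLC38A4, an amino acid transporter chosen here after its values were seen, all with a lower share in tagged-CFAP20. The limma calls depended on which libraries entered. Without tagged-CFAP20 replicate 1 or replicate 2 no member was called, with or without adjustment at 0.05, but such a fit takes the spread from the CFAP20-KO pair alone and tests 47 members, so the 13 of the 16 that were at 0 in both controls could not be called. The log2 changes of SLC38A6 in these fits were 1.34 and 1.62. Without a CFAP20-KO library the fit takes the spread from the tagged-CFAP20 pair alone. The lone, shallower control is then assumed to vary like that pair, so the calls counted next are not secure. Leaving out CFAP20-KO replicate 1 gave 40 members called higher and 8 lower, beside 49.2% and 7.75% of all genes, and leaving out CFAP20-KO replicate 2 gave 38 higher and 2 lower, SLC38A4 and SLC26A8, beside 46.6% and 2.77%. In counts of groups that do not overlap, 50 members were higher with the tagged protein (69.4% of all genes tested were) and 2 were lower (1.91%), SLC25A33 among them. A gene at 0 in both controls was tested only if both tagged-CFAP20 libraries had signal, so it counts as higher here by construction.

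**Figure D2:**
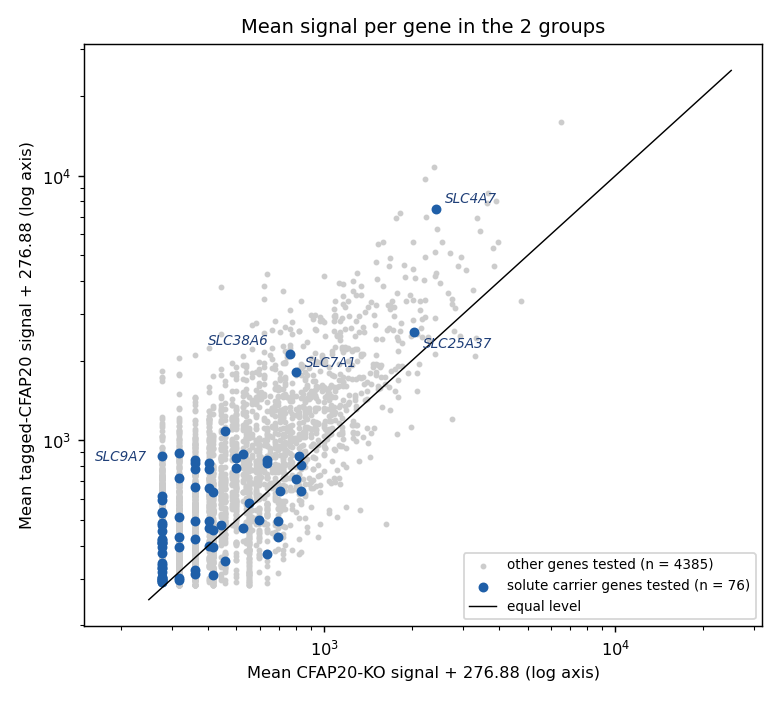
Mean signal + 276.88 of each gene tested in CFAP20-KO (x axis) and tagged-CFAP20 (y axis), both on log axes, with the 76 solute carrier genes in blue, the other 4385 genes in grey and a line of equal level. The members lie within the grey cloud, SLC4A7 near its upper right end and SLC25A37 close to the line, and those at the left edge are at 0 in both CFAP20-KO libraries.

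The counts by class that follow stand beside 23.4% of all genes called higher, and a member at 0 in both controls entered the test only through the tagged-CFAP20 libraries, so its call supports no difference. Among the amino acid transporters, 17 members of which 9 were tested, 1 passed as higher and 0 as lower, and the summed signal was 2158 and 3046 in CFAP20-KO and 6401 and 6214 in tagged-CFAP20. SLC38A6, of the family of sodium-coupled neutral amino acid transporters (chr14:60981162-61052630, plus strand), stood at 415 and 554 in CFAP20-KO and at 2057 and 1644 in tagged-CFAP20, a ratio of 3.82. Its groups did not overlap, and its log2 change was 1.48 with an SE of 0.28 (adjusted p = 0.0394, limma). The limma adjusted p was 0.0288 with a pseudocount of 10 and 0.0469 with the replicate block, but 0.0570 with the stricter filter on mean signal. With the same summed window signal the log2 change of SLC38A6 was 0.625, with a limma adjusted p of 0.135. As a share of the gene signal the ratio of its pooled reads was 1.72, with an exact interval of 0.726 to 5.36. SLC7A1, the cationic amino acid transporter for arginine and lysine (chr13:29509410-29595688, minus strand), stood at 498 and 554 against 1684 and 1379, a ratio of 2.91, and did not pass in limma (adjusted p = 0.0524). Its limma adjusted p was 0.0422 with a pseudocount of 10, 0.119 with the replicate block and 0.482 with the same summed window signal, where the log2 change of 1.17 became 0.30. Its groups did not overlap either.

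SLC38A9, which senses arginine at the lysosome for the growth kinase mTORC1, had 1 overlap in each control, 83.0 and 277, against 578 and 1045 with the tagged protein. The ratio of its pooled reads on the deposited scale was 9.0 with a 95% exact interval of 1.57 to 360, and in limma its adjusted p was 0.0896. As a share of the gene signal the ratio was 3.74, with an interval of 0.654 to 149. SLC1A1, a glutamate transporter, overlapped between groups at 166 and 554 against 540 and 599. SLC38A7, which exports glutamine from lysosomes, stood at 0 and 1108 against 424 and 307, and its log2 change of 0.05 became -1.11 without CFAP20-KO replicate 1 and 1.21 without CFAP20-KO replicate 2. That control replicate had a step of 277 per overlap, so 4 overlaps made its whole value.

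The bicarbonate, proton, chloride and cation exchangers, 18 members with 10 tested, had 2 pass as higher and 0 as lower, and their sum was 3071 and 4430 against 10527 and 9154. SLC4A7 made up most of this in every library but CFAP20-KO replicate 2, where it held 2215 of 4430. SLC9A7, a sodium and proton exchanger of the trans-Golgi network (chrX:46605318-46759055, minus strand), was at 0 in both controls and at 578 and 613 with the tagged protein. Its tagged-CFAP20 mean was 2.22 times the pooled floor, a value that leaves out counting error of the tagged reads. For SLC9A7 the exact interval of the ratio of pooled reads began at 1.76 on the deposited scale. As a share of the gene signal it began at 0.733, so no minimum difference holds on both scales. Exon bins make up 2.59% of its bins and held 4.44% and 0% of its tagged-CFAP20 overlaps, and the bin with most overlaps, 6 and 3, overlapped an exon of another gene, so its signal cannot be assigned to SLC9A7 alone. SLC9A8, another exchanger of the Golgi, stood at 498 and 0 against 668 and 557. SLC4A4, the electrogenic sodium bicarbonate cotransporter, stood at 0 and 831 against 180 and 125, with groups that overlapped.

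The mitochondrial carriers, 14 members with 12 tested, differed less in sum, at 2075 and 4707 against 3869 and 4222, a ratio of 1.19 with groups that overlapped. SLC25A4 and SLC25A20 passed as higher and 0 as lower. SLC25A37, mitoferrin, which brings iron into mitochondria for heme synthesis (chromosome 8), had 1577 and 1938 in CFAP20-KO, the second largest control sum after SLC4A7, and 2288 and 2285 in tagged-CFAP20. Its groups did not overlap, but the ratio of 1.30 did not pass in limma (adjusted p = 0.350), and the log2 change of 0.34 turned to -0.67 with the same summed window signal. As a share of the gene signal the ratio of its pooled reads was 0.559, with a 95% exact interval of 0.350 to 0.944 and an adjusted p of 0.598 in the exact test.

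SLC25A46, of the outer mitochondrial membrane, stood at 0 and 1108 against 476 and 585, and its log2 change of 0.38 became -0.78 without CFAP20-KO replicate 1 and 1.54 without CFAP20-KO replicate 2. SLC25A33, a carrier of pyrimidine nucleotides, was lower with the tagged protein, at 166 and 554 against 64.3 and 125, without passing in limma (log2 change -0.71, SE 0.41, adjusted p = 0.250). The ratio of its pooled reads was 0.349 with a 95% exact interval of 0.0899 to 1.97. SLC25A4, the ADP and ATP carrier of heart and muscle, and SLC25A20, the carnitine and acylcarnitine carrier, had 0 in both controls and 77.1 and 55.7, and 51.4 and 55.7, with the tagged protein, all under what 3 control reads can hide.

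Among the metal ion transporters, 10 members with 7 tested, 2 passed as higher and 0 as lower. SLC39A13, a zinc transporter of the early secretory pathway (chr11:47408631-47416496, plus strand), stood at 83.0 and 0 in CFAP20-KO and at 694 and 543 in tagged-CFAP20 (log2 change 1.5, SE 0.29, adjusted p = 0.0398, limma). With 1 control read the ratio of pooled reads on the deposited scale was 6.91 with a 95% exact interval of 1.20 to 277. The exact test gave an adjusted p of 0.173 on that scale. As a share of the gene signal the ratio was 2.87, with an interval of 0.498 to 115. SLC41A1, a magnesium transporter, was at 0 in both controls and at 347 and 293 with the tagged protein. Its mean was 1.19 times the pooled floor, a value that leaves out counting error of the tagged reads. SLC39A8, a zinc and manganese importer, stood at 581 and 277 against 411 and 320, with groups that overlapped.

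Of the 11 SLC35 members, the family that holds the nucleotide sugar transporters of the Golgi and endoplasmic reticulum, 9 were tested, 1 passed as higher and 0 as lower, and the summed signal was 1245 and 831 against 3239 and 2466. The member that passed, SLC35F1, had 0 in both controls and only 51.4 and 69.7 with the tagged protein. SLC35D1, which brings UDP-sugars into the endoplasmic reticulum, overlapped between groups at 249 and 831 against 630 and 557. SLC35F2 stood at 166 and 0 against 656 and 474, and did not pass in limma (adjusted p = 0.0726).

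The transporters of organic ions and drugs (SLC15, SLC22, SLC47 and SLCO), 20 members with 9 tested, held 1 read overlap in the 2 controls together and 134 in the tagged-CFAP20 libraries. Over all genes these numbers were 13054 and 300080, so few control overlaps are due at an equal share. On shares of the gene signal, 0 members of the class had an unadjusted p under 0.05 in the exact test, beside 5.51% of all genes. Of the 9 tested, 4 passed as higher in limma and 0 as lower, all 4 at 0 in both controls. SLC22A5, which imports carnitine, reached 411 and 265 with the tagged protein. Its mean was 1.26 times the pooled floor, a value that leaves out counting error of the tagged reads. Under the floor lay SLC22A13 at 116 and 153 and the organic cation exporter SLC47A2 at 38.6 and 41.8. In this class 8 members were at 0 in all 4 libraries.

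The sugar transporters, 10 members with 6 tested, had 1 pass as higher, SLC2A8, at 0 and 0 against 141 and 97.5. SLC2A10, a facilitative glucose transporter, stood at 332 and 0 against 167 and 237. The lipid and bile acid transporters had 1 of 3 tested members pass, the fatty acid transport protein SLC27A4 at 0 and 0 against 244 and 265, while SLC33A1, the acetyl-CoA transporter of the endoplasmic reticulum, stood at 0 and 277 against 424 and 293. Of the vesicular and other transporters 1 of 2 tested passed, SLC18B1, a vesicular polyamine transporter, at 0 and 0 against 296 and 223, and SLC17A5, the lysosomal sialic acid exporter, stood at 249 and 0 against 334 and 432. No lipid, sugar or vesicular member passed as lower.

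Neither the 2 phosphate members tested nor the 4 of vitamins, choline and heme passed. SLC37A4, which brings glucose 6-phosphate into the endoplasmic reticulum, stood at 166 and 277 against 643 and 376. SLC19A1, the reduced folate carrier, stood at 166 and 277 against 566 and 599 (adjusted p = 0.101, limma). Both had groups that did not overlap. Of the 3 tested monocarboxylate, dicarboxylate and sulfate transporters 1 passed as higher, SLC16A7, at 0 and 0 against 167 and 237, which the rule for named genes did not choose.

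**Figure D3:**
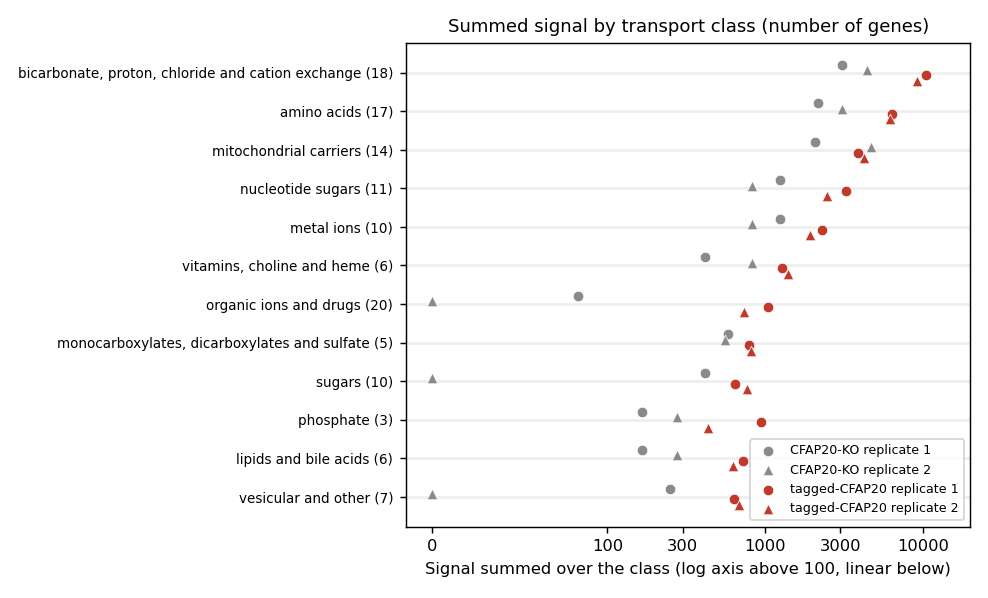
Signal summed over each transport class in each library (x axis, logarithmic above 100 and linear below; number of member genes in brackets), with CFAP20-KO in grey and tagged-CFAP20 in red. The groups overlap for the mitochondrial carriers only, and the organic ion and drug class shows the lowest control values, 83.0 and 0.

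Reads were denser on exons than on introns in most members with enough reads to compare. Bins that overlap an annotated exon are 15.1% of member bins and held 48.3% and 38.6% of the members' overlaps in CFAP20-KO and 43.0% and 41.9% in tagged-CFAP20. The 95% exact intervals were 38.0 to 58.2% and 24.2 to 55.5% in the controls and 40.7 to 45.3% and 39.3 to 44.4% with the tagged protein, and the groups overlap (exact permutation p = 1). Over all genes the share was 41.2% and 42.4% in CFAP20-KO and 50.4% and 50.4% in tagged-CFAP20. Of 28 members with at least 20 overlaps in each tagged-CFAP20 library, 25 had an exon share above that of their bins in both, and 1, SLC6A8, lay below in both. Coding bins held 26.6% and 19.3% of the members' overlaps in CFAP20-KO and 29.5% and 27.8% in tagged-CFAP20 (exact permutation p = 0.333, the smallest possible). Without SLC4A7 these shares were 25.4% and 20.4% against 26.4% and 26.1%. Over all genes they were 24.5% and 27.1% against 36.0% and 35.5%.

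Among the leading genes the exon share differed. In tagged-CFAP20 it was 66.3% and 68.9% in SLC25A37, where exon bins are 19.7% of bins, 31.9% and 30.5% in SLC38A6 (11.7% of bins), and 36.6% and 25.3% in SLC7A1 (12.3% of bins). In CFAP20-KO it was 78.9% and 85.7% in SLC25A37, on 19 and 7 overlaps, and the control shares of SLC38A6 and SLC7A1 rest on at most 6 overlaps a library. SLC25A37 was thus the most exonic of the 4 in all libraries but CFAP20-KO replicate 1, in which SLC38A6 had 4 of 5 overlaps on exons.

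Along the gene, members up to 100 kb long (115) held 30.9% and 26.8% of their overlaps in their last decile in CFAP20-KO and 15.6% and 15.3% in tagged-CFAP20. The groups did not overlap (exact permutation p = 0.333, the smallest possible). All 127 members together had 143 and 57 overlaps in the CFAP20-KO libraries, so the control shares rest on few overlaps. Without SLC25A37 the shares were 25.3% and 20.6% against 14% and 13.5%. Over all 8875 genes of that length they were 18.6% and 15.3% against 13.2% and 14%. The first kilobase held 2.80% and 5.26% of the members' overlaps in CFAP20-KO and 4.92% and 4.02% in tagged-CFAP20, which overlap. Signal per kb in member genes was 1.80 and 3.58 times that from 10 to 2 kb upstream of them in CFAP20-KO and 2.06 and 2.33 times in tagged-CFAP20.

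**Figure D4:**
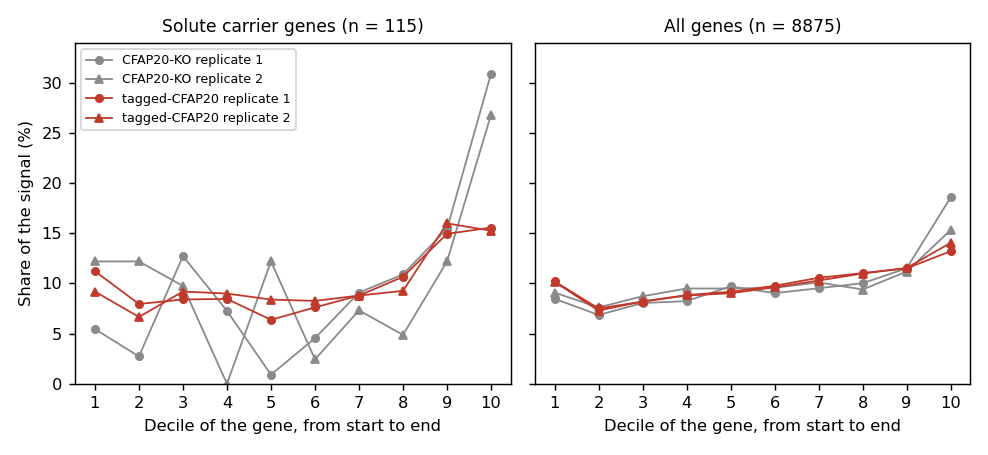
Share of read overlaps in each decile of the gene, 1 of 10 equal parts, from start to end (x axis) for the 115 solute carrier genes up to 100 kb long (left) and all 8875 such genes (right), with 1 line per library. The CFAP20-KO lines of the members end at 30.9% and 26.8% and the tagged-CFAP20 lines at 15.6% and 15.3%, and the CFAP20-KO lines vary most between neighbouring deciles.

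Base composition of covered introns showed no common shift. Intron bins with a tagged-CFAP20 overlap were 41.9% G or C over all members, and those with none 42.0%. Within genes, 12 of 26 members with at least 20 intron bins of each kind had more G or C in the covered bins. In SLC4A7 covered intron bins were 35.6% G or C and 35.0% U, against 39.6% and 32.6% in uncovered ones, with an SD between bins of 8.78 and 9.35 percentage points of G or C.

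Other transport genes were counted in the same fit. Of 108 ABC transporters, P-type and V-type ATPases, major facilitator domain genes, aquaporins and ion channels, 48 were tested, 12 passed as higher and 0 as lower, beside 23.4% and 0.0224% of all genes, and 9 of the 12 were at 0 in both controls. Their median log2 change was 0.27 and their summed signal 8300 and 9137 in CFAP20-KO against 22249 and 19897 in tagged-CFAP20, a ratio of 2.42 beside 2.24 for the solute carriers.

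Of the 34 members at 0 in all 4 libraries, 8 were organic ion and drug transporters, 5 were amino acid transporters and 5 were exchangers, with the other classes at 1 to 4. Of the members that the marker lists of other cell types hold, SLC12A1 (kidney) and SLC32A1 (neurons) were at 0, SLC10A1 (liver) stood at 166 and 0 against 51.4 and 41.8, and SLC22A6 (kidney) at 0 and 0 against 12.9 and 0. SLC1A6 was the only member with signal in the controls and none with the tagged protein.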

How the data were processed

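The 4 FLASH-seq libraries of RPE1 cells, 2 CFAP20-KO and 2 tagged-CFAP20, were grouped by their titles. The submitters' processing notes name hg38, HOMER 4.8.2, UMI-tools 1.0.0, R 4.0.5 and Bowtie2 2.3.5, without roles or order. The authors deposited 1 table of signal (coverage) per library, with 1001 bins of 200 bp from 100 kb before to 100 kb after each gene start. How this signal was scaled, and whether strand was used, is not given in the sources used here, so overlapping and antisense genes cannot be told apart. Deposited columns of unit other describe the gene. Within a tolerance of 0.01, all values (100%) were whole multiples of a library's step, which was 83.0 in CFAP20-KO replicate 1, 276.88 in CFAP20-KO replicate 2, 12.85 in tagged-CFAP20 replicate 1 and 13.93 in tagged-CFAP20 replicate 2. A value divided by its step is called a read overlap, and 1 read covered 1.40 bins, by the runs of 8996 isolated reads. Over all genes, overlaps numbered 9146 and 3908 in CFAP20-KO and 165189 and 134891 in tagged-CFAP20. There was 1 further column of values, of no sample here, and it was not used.

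Signal was summed from each gene start to its end or to 100 kb. Overlaps are not whole reads, so limma 3.58.1 in R 4.3.3 (with trend) was run on log2(signal sum + 276.88), the pseudocount being 1 overlap in the shallowest library, over the 4461 genes with signal in 2 or more libraries, and p-values were adjusted over all of them by Benjamini and Hochberg (threshold 0.05). Fold changes on this scale understate those of low genes. The exact binomial test (scipy 1.17.1) compared overlaps pooled per group and divided by 1.40. Family values were tested by an exact two-sided permutation of the 6 assignments of libraries, whose smallest p is 0.333. Scripts were tested on simulated data. Exons are those of GENCODE 44, which held 126 of 127 members. Members, transport classes and lists were chosen with earlier results of these data known. Named genes are up to 12 members with the smallest p in each direction, the 12 with most signal in tagged-CFAP20, the 6 with most in CFAP20-KO, the 3 with the lowest log2 change above the median signal, and the first of each class; some of the members so chosen are not reported here. Alternatives were other pseudocounts, filters, scalings, regions and tests, the replicate block and leaving out each library.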

Additional observations from a re-analysis of the deposited data

How the results depend on the processing

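The count of 16 members called higher (23.4% of all genes) was 29 with a pseudocount of 10 (37.6% of all genes), 8 in limma without the trend (9.95%), 2 with no filter on low values (0.921%; SLC2A5 and SLC8A2, both chosen after their values were seen), 0 with a stricter filter on mean signal (26 members tested, 10 at an unadjusted p under 0.05, beside 518 of 1531 genes), 0 with the same summed window signal (0 genes of all under either of these), and 3 and 0 in the exact tests on the deposited scale and on shares. Leaving out 1 library gave 0 to 40 higher and 0 to 8 lower. It was 20 with a pseudocount of 100 (28.9%), 18 for the first 3 kb (45.5%) and 18 for the whole downstream side (17.6%). The replicate numbers share only a number (r = -0.04 across 4461 genes between the groups' differences of replicate 1 and 2). With the replicate block 23 members (37.6% of all genes) were called higher and 0 lower. The summed ratio was 1.02 with the same summed window signal, and the difference in share -0.086 without SLC4A7 and -0.018 to 0.087 without single libraries. These causes were not tested.

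Log2 changes that turned sign with the same summed window signal were -0.67 for SLC25A37, -0.54 for SLC35D1, -0.17 for SLC1A1, -0.076 for SLC25A46, -0.37 for SLC38A7 and -0.25 for SLC2A10. On shares in the exact test, they were -0.84 for SLC25A37, -0.48 for SLC9A8, -0.52 for SLC35D1, -0.18 for SLC1A1, -0.30 for SLC25A46, -0.17 for SLC17A5, -0.82 for SLC38A7 and -1.72 for SLC2A10. With deposited values the exact test put SLC2A10 at -0.45. In the first 3 kb SLC39A8 was at 0.20 and SLC38A7 at -0.48, on the whole downstream side SLC25A46 was at -0.25, and with a pseudocount of 10 SLC4A4 was at 0.81. Without single libraries the log2 change ranged from -0.35 to 0.73 for SLC35D1, -0.78 to 1.54 for SLC25A46, -0.42 to 0.21 for SLC39A8, -1.11 to 1.21 for SLC38A7, -0.35 to 0.79 for SLC2A10 and -1.37 to 0.63 for SLC4A4. Depth limits all results at 0 in the controls, where 3 pooled reads are worth 268.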
